A study of Homo sapiens with 4 samples.

Results

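Musashi, KHDRBS, QKI, IGF2BP and LIN28B proteins bind messenger RNA and set how it is spliced, translated, silenced or degraded. The expression of 10 genes of this kind was compared between 2 human breast cancer cell lines. They were the Musashi genes MSI1 and MSI2, the STAR-domain genes KHDRBS1, KHDRBS2, KHDRBS3 and QKI, the insulin-like growth factor 2 mRNA-binding protein genes IGF2BP1, IGF2BP2 and IGF2BP3, and LIN28B. They were taken by gene symbol from a table of 57815 genes, and each symbol matched 1 row.

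RNA-Seq of total RNA was done for MDA-MB-231, a triple-negative breast cancer line, and for LM2-4175, a derivative of MDA-MB-231 that metastasizes to the lung. Neither line was treated, and both were grown in DMEM with fetal bovine serum. There were 2 libraries per line and 4 in all, and whether they came from separate cultures is not given in the sources used here. The comparison asks which of these regulators differ in RNA level between a line and its more metastatic derivative. It is a comparison of 1 derivative with its parental line.

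Expression is given as FPKM, a count of sequenced fragments corrected for transcript length and for library size, so levels of different genes can be set side by side. The authors combined the libraries of a line, which leaves 1 FPKM per gene and line with a lower and an upper bound from their software. The table used here holds no value per library, so no SD, p-value or replicate check was computed from it. A call required a difference of at least 1.5-fold in FPKM + 1 together with bounds that did not overlap between the lines. Genes with a mean of at least 0.5 FPKM, 13911 in all, entered this comparison. The depth per library is not known from the table, although the paper lists the aligned read pairs of each library. Precision was read from the bounds. Their median distance from the FPKM came to 38.6% for MDA-MB-231 against 38.1% for LM2-4175. A higher level in every cell and a larger share of expressing cells cannot be told apart in bulk RNA.

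The identity of the lines was checked against marker genes. VIM, which encodes the mesenchymal filament vimentin, was at 1355 FPKM in MDA-MB-231 and 1768 in LM2-4175. ESR1 and PGR, the hormone receptor genes that are silent in triple-negative cells, were at most 0.0331 FPKM in either line. The leukocyte gene PTPRC was at most 0.0767 FPKM, and the T-cell gene CD3E and the lung epithelial gene SFTPC were listed at 0. The liver gene ALB was not near 0, with 7.48 FPKM in MDA-MB-231 and 8.49 FPKM in LM2-4175. ERBB2, which is not amplified in triple-negative tumours, was at 35.0 and 22.8 FPKM. Of the epithelial genes KRT8, KRT18, EPCAM, CLDN4 and CDH1, the first 4 were called lower in LM2-4175, and KRT8 went from 626 to 180 FPKM. CDH1, at 0.851 and 0.366 FPKM, was not called. The part of these epithelial genes in the results on the RNA-binding proteins was not tested.

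Musashi proteins bind UAG-containing elements in 3′ untranslated regions and control translation in stem cells and tumours. KHDRBS1, also called Sam68, and its relatives KHDRBS2 and KHDRBS3 are signalling-linked regulators of splicing, and QKI is a STAR protein that acts in splicing and in circular RNA formation. IGF2BP proteins stabilize bound messages and can read m6A, the methylation of adenosine in RNA. LIN28B blocks maturation of the let-7 microRNAs, which in turn silence LIN28B, IGF2BP and HMGA2 messages in many tissues.

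Because let-7 links several of these genes, its sequence and its matches in their 3′ untranslated regions are shown first. The mature sequence of let-7a from RefSeq is given with its seed, bases 2 to 8, in capitals, and all 9 family members in the table share this seed, GAGGUAG.
let-7a: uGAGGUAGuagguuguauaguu
A match to the seed reads CTACCTC, and a match of 8 bases adds an A at its 3′ end. Of the 10 genes, IGF2BP1 and LIN28B held 4 matches each in the 3′ untranslated region of 1 annotated transcript, and IGF2BP2 and IGF2BP3 held 1 each. MSI1, MSI2, KHDRBS1, KHDRBS2, KHDRBS3 and QKI held none. Of the 4 matches in IGF2BP1, 3 were of 8 bases and are not shown. The following stretches of hg19 end in a match of 8 bases, in capitals, and are read on the strand of the gene.
IGF2BP3, chr7:23351414-23351443, minus strand: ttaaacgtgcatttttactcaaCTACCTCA
IGF2BP2, chr3:185362008-185362037, minus strand: cgagaaaaacacacagaagaagCTACCTCA
LIN28B, chr6:105526680-105526709, plus strand: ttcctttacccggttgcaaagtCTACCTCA
LIN28B, chr6:105529289-105529318, plus strand: ttactctgtttacagcaaaaggCTACCTCA

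At least 1 match was present in 9.74% of 19066 genes with an annotated 3′ untranslated region. Among regions of a length like that of the gene, a match was held by 32.7% for IGF2BP1, 23.5% for LIN28B, 13.1% for IGF2BP2 and 12.1% for IGF2BP3. As many as 4 matches were held by 0.510% of regions as long as that of IGF2BP1 and by 0.186% of those as long as that of LIN28B. A match is a description of letters and not of binding, and the microRNAs themselves were not analysed here.

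MSI2 and KHDRBS3 were called higher in LM2-4175, and none of the 10 genes was called lower. MSI2 rose 18.9-fold and KHDRBS3 rose 2.30-fold. The other 4 genes past the filter, KHDRBS1, QKI, IGF2BP2 and IGF2BP3, had overlapping bounds. MSI1, KHDRBS2, IGF2BP1 and LIN28B were under the filter on the mean, and none reached 0.5 FPKM in either line. Of all genes compared, 9.27% were called, 4.67% higher and 4.61% lower, which is the background for the 2 called among the 6 that passed.

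**Figure D1:**
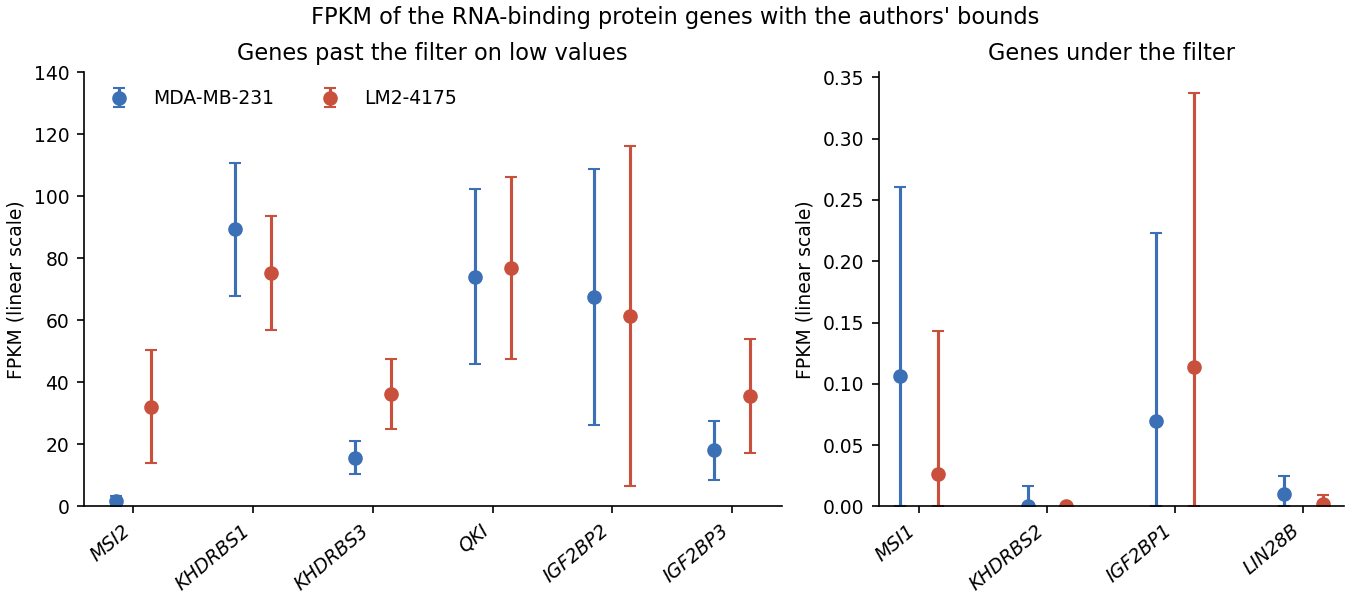
FPKM of the 10 genes in MDA-MB-231 (blue) and LM2-4175 (red), on linear axes that differ between the panels. Points are the authors' pooled values and bars their lower and upper bounds, which do not overlap for MSI2 (1.70 and 32.2 FPKM) and KHDRBS3 (15.7 and 36.3 FPKM).

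Among the Musashi genes, MSI2 was at 1.70 FPKM (bounds 0.201 and 3.21) in MDA-MB-231 and rose to 32.2 FPKM (bounds 14.0 and 50.4) in LM2-4175. The level in LM2-4175 lies above that in MDA-MB-231 by more than the bounds of either line. On the log2(FPKM + 1) scale the difference was 3.62, and 35 of the 13911 genes compared rose more. The bounds allow a ratio of FPKM from 4.37 to 251, and in MDA-MB-231 the bounds lie 88.2% away from the low FPKM. MSI2 exceeded 16.4% of the compared genes in MDA-MB-231 and 76.0% in LM2-4175.

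MSI2 (ENSG00000153944) lies on the plus strand of chromosome 17, from 55333212 to 55762050 in hg19, and 0.0225% of its exon bases overlap another annotated gene. Its nearest compared neighbours were AKAP1 (23.4 FPKM in MDA-MB-231, 24.6 in LM2-4175) and MRPS23 (80.5 and 78.9 FPKM). Neither was called. Within 3 Mb, 42 protein-coding genes were compared, of which 3 were called higher and 1 lower. Their median log2 difference was 0.05 and their highest 1.37, so the difference of MSI2 lay above that of every neighbour.

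MSI1, the neural stem cell member of the family, was at 0.106 FPKM in MDA-MB-231 and 0.0269 in LM2-4175, with a lower bound of 0 in both. MSI2 therefore made up 94.1% of the summed Musashi FPKM in MDA-MB-231 and 99.9% in LM2-4175. The sum went from 1.81 to 32.2 FPKM. The sums of a family carry no error of their own.

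RefSeq promoter entries were matched for 6 of the 10 genes, namely MSI2, KHDRBS1, KHDRBS2, IGF2BP2, IGF2BP3 and LIN28B. Those of MSI1, KHDRBS3, QKI and IGF2BP1 were not used here. The first MSI2 entry is shown because MSI2 differed most among the 10 genes. It runs from 250 bases before the annotated start to 50 after it on GRCh38.p14, with motif matches in capitals.
MSI2, chr17:57255601-57255900, plus strand: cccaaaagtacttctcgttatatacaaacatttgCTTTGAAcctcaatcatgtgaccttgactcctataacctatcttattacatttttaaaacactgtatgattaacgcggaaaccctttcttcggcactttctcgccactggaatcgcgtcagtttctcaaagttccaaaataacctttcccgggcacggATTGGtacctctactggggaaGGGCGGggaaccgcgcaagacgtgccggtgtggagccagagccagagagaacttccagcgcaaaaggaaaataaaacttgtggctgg

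The E-box CACGTG, the GC box GGGCGG, the CCAAT box, the TATA box TATAAA, the AP-1 site TGANTCA and the TCF/LEF cores, which are CTTTGAA or alternatively CTTTGAT, were searched on both strands. The MSI2 entry held 1 CTTTGAA, 1 CCAAT, read on the minus strand as ATTGG, and 1 GGGCGG. These motifs occurred in 4.43%, 34.6% and 45.0% of the 35116 promoters in the table. It had 15 CpG dinucleotides, against a median of 14 over all promoters, and 46.3% GC. The second MSI2 entry held 34 CpG dinucleotides, 67.7% GC and none of these motifs.

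Among the STAR genes, KHDRBS3, also known as SLM2 or T-STAR and best known as a splicing regulator in testis and brain, was the one called. Its FPKM went from 15.7, with bounds of 10.4 and 21.1, to 36.3, with bounds of 25.1 and 47.5. The bounds of the lines are separate by a narrow gap, and they allow a ratio from 1.19 to 4.58. The log2 difference was 1.15, and 466 compared genes rose more. KHDRBS3 exceeded 57.3% of the compared genes in MDA-MB-231 and 78.6% in LM2-4175.

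KHDRBS3 (ENSG00000131773) lies on chromosome 8, plus strand, from 136469699 to 136668965 in hg19, and none of its exon bases overlaps another annotated gene. Of 6 compared genes within 3 Mb, TMEM71 was called higher, from 11.0 to 23.5 FPKM. ZFAT, the nearest, was at 3.36 and 3.004 FPKM. The median log2 difference of these neighbours was 0.23 and the highest 1.08, just under that of KHDRBS3.

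KHDRBS1, the widely expressed member, was at 89.3 FPKM in MDA-MB-231 (bounds 67.9 and 110.7) and 75.3 in LM2-4175 (bounds 56.8 and 93.8). The bounds overlap over most of their length and allow a ratio from 0.513 to 1.38. KHDRBS2 was at 1.58e-05 FPKM in MDA-MB-231 and was listed at 0 in LM2-4175. The 3 KHDRBS genes summed to 105.0 FPKM in MDA-MB-231 against 111.6 FPKM in LM2-4175. KHDRBS3 supplied 14.99% of it in MDA-MB-231 and 32.5% in LM2-4175. KHDRBS1 supplied 85.0% and 67.5%.

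QKI had nearly equal values, 74.0 FPKM in MDA-MB-231 (bounds 45.8 and 102.2) and 77.0 in LM2-4175 (bounds 47.6 and 106.3). The log2 difference was 0.06, and the bounds allow a ratio from 0.465 to 2.32, which spans differences in both directions. QKI lies on chromosome 6, from 163835032 to 163999624. KHDRBS1 lies on chromosome 1, from 32479469 to 32526451.

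**Figure D2:**
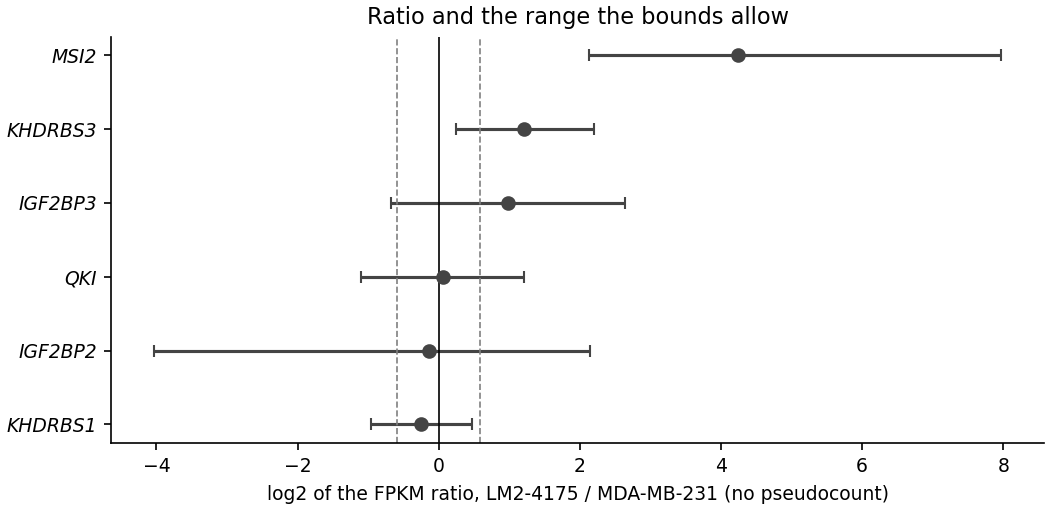
log2 of the FPKM ratio, LM2-4175 over MDA-MB-231, without a pseudocount, for the 6 genes past the filter. Bars span the ratios that the bounds allow and dashed lines mark 1.5-fold in either direction. The bars of MSI2 (4.37 to 251 as ratios) and KHDRBS3 (1.19 to 4.58) lie to the right of equality, and those of the other 4 genes cross it.

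Among the IGF2BP genes, IGF2BP3, an oncofetal member that many carcinomas express, had the largest ratio. Its level was 18.1 FPKM (bounds 8.67 and 27.6) in MDA-MB-231 against 35.7 FPKM (bounds 17.4 and 54.0) in LM2-4175. The ratio was 1.97 and the log2 difference 0.94, but the bounds overlap and allow a ratio from 0.629 to 6.23. IGF2BP3 was therefore not called. With the fold alone, it would be the third called gene of the 10.

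IGF2BP3 (ENSG00000136231) lies on the minus strand of chromosome 7, from 23349828 to 23510110. MALSU1, which encodes a factor of the mitochondrial ribosome, overlaps 17.8% of its exon bases in GENCODE 44, while the FPKM were counted on GENCODE 19. The paper names a TruSeq library kit and default mapping settings, and states no strand setting for counting. MALSU1 itself was at 36.8 and 39.7 FPKM. Within 3 Mb, 20 of 23 compared genes had a higher value in LM2-4175, with a median log2 difference of 0.17, and 3 of them were called. Of all 13911 compared genes, 6326 had a higher value in LM2-4175, and 4.67% were called higher. IL6, which encodes interleukin 6, went from 12.5 to 245.2 FPKM, GPNMB from 0.832 to 2.69 and SNX10 from 0.687 to 4.13. TRA2A, the nearest gene on the other side, was at 56.4 and 59.1 FPKM.

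IGF2BP2 was at 67.6 FPKM in MDA-MB-231 (bounds 26.4 and 108.8) and 61.4 in LM2-4175 (bounds 6.63 and 116.2). Its bounds lay 61.0% and 89.2% from the FPKM, the widest of the 6 genes in LM2-4175, and they allow a ratio from 0.0609 to 4.41. IGF2BP2 lies on chromosome 3, from 185360918 to 185542830. IGF2BP1 was at 0.0700 and 0.113 FPKM, with a lower bound of 0 in both lines. IGF2BP2 supplied 78.8% of the summed IGF2BP FPKM in MDA-MB-231 and 63.2% in LM2-4175. IGF2BP3 supplied 21.1% and 36.7%. The sum was 85.8 and 97.2 FPKM.

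The promoter entries of IGF2BP3 and KHDRBS1, on GRCh38.p14, are shown as a pair because both hold 2 copies of CACGTG, in capitals. The gene positions given in the text are on hg19. At least 2 copies were present in 0.664% of all promoters and at least 1 in 7.26%. The FPKM ratio was 1.97 for IGF2BP3 (0.629 to 6.23 by the bounds) and 0.843 for KHDRBS1 (0.513 to 1.38). Neither gene was called, and a link of the motif to the RNA levels was not tested.
IGF2BP3, chr7:23470442-23470741, minus strand: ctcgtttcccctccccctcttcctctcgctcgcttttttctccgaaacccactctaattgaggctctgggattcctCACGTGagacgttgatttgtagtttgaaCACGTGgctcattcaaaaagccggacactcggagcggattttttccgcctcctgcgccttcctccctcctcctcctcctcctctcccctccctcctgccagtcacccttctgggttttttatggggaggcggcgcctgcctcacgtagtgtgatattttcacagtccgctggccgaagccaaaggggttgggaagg
KHDRBS1, chr1:32013618-32013917, plus strand: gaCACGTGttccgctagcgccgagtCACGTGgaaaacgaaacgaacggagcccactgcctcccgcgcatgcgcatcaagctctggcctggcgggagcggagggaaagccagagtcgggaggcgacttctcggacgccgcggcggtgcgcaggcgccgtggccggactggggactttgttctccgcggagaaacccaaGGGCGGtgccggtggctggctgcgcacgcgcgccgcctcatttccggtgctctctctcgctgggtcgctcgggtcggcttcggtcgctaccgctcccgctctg
The third run of capitals in the KHDRBS1 entry marks its 1 GGGCGG. KHDRBS1 had 42 CpG dinucleotides and IGF2BP3 had 17.

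LIN28B was at 0.00992 FPKM in MDA-MB-231 and 0.00177 in LM2-4175, with a lower bound of 0 in both. Its paralog LIN28A, named after its values were seen, was at 0.0176 and 0.00289 FPKM. Neither gene passed the filter, and the bounds of both lines reach 0 for both genes, so no difference was detectable. LIN28B lies on chromosome 6, from 105384491 to 105531207.

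**Figure D3:**
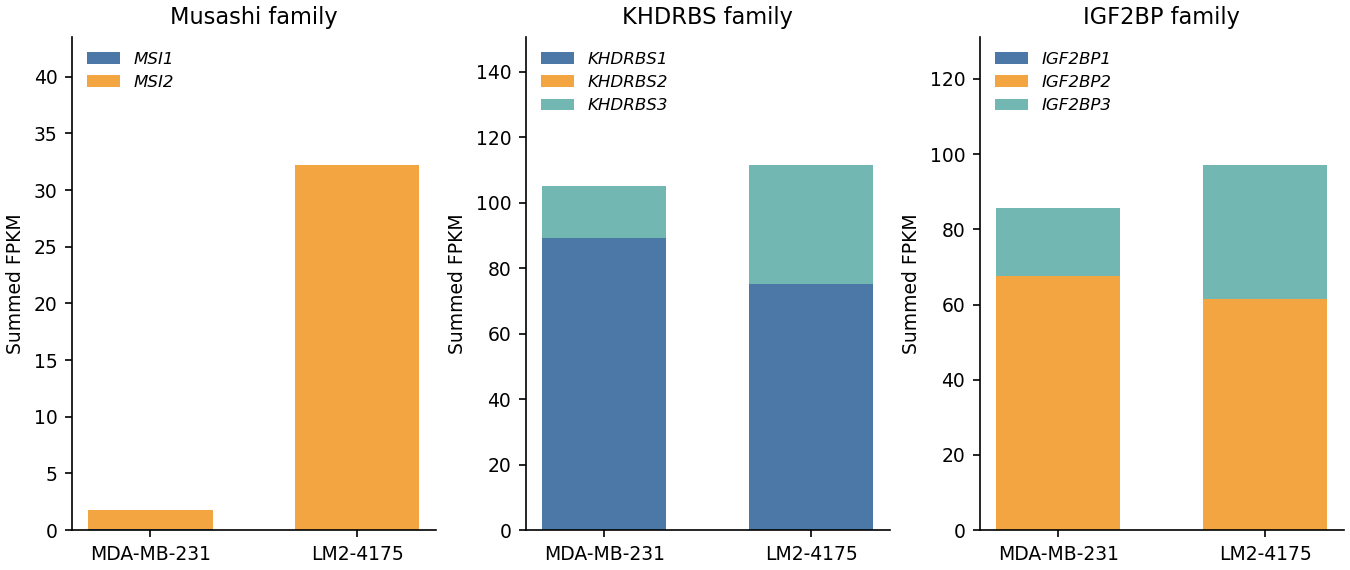
Summed FPKM of the Musashi, KHDRBS and IGF2BP genes in each line, stacked by gene from 0 on linear axes. MSI2 makes up nearly all of the Musashi bar, and the shares of KHDRBS3 (14.99% to 32.5%) and IGF2BP3 (21.1% to 36.7%) are larger in LM2-4175.

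In MDA-MB-231 the order of levels was KHDRBS1, QKI, IGF2BP2, IGF2BP3, KHDRBS3 and MSI2. The bounds of each neighbouring pair overlapped, except for KHDRBS3 and MSI2. In LM2-4175 the order was QKI, KHDRBS1, IGF2BP2, KHDRBS3, IGF2BP3 and MSI2, and the bounds of all neighbouring pairs overlapped. MSI2 thus stood apart below the other 5 genes in MDA-MB-231. In LM2-4175 its bounds overlapped those of KHDRBS3, IGF2BP3, IGF2BP2 and QKI, but not those of KHDRBS1. The 10 genes summed to 266.7 FPKM in MDA-MB-231 against 318.0 FPKM in LM2-4175. MSI2 supplied 0.639% and 10.1% of it.

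For the other 7 genes, the median log2 difference of the neighbours ranged from -0.41 for KHDRBS2, with 2 compared neighbours, to 0.06 for IGF2BP2 and LIN28B. Near LIN28B, POPDC3, the nearest gene on 1 side, was called higher, from 10.5 to 19.5 FPKM, as was SOBP, from 0.0331 to 1.36 FPKM, while HACE1 on the other side was at 4.82 and 5.01 FPKM. Near MSI1, 45 of 60 compared genes had a lower value in LM2-4175, with a median of -0.20. Over all 13911 compared genes, 7585 had a lower value and the median was -0.04. The antiviral gene OASL was the 1 called near MSI1, falling from 19.02 to 2.94 FPKM. The nearest genes of MSI1, SIRT4 (0.405 and 0.937 FPKM) and COX6A1 (352.1 and 340.5 FPKM), were not called.

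Near QKI, the kinase gene RPS6KA2 was called higher, from 2.32 to 7.06 FPKM. AGPAT4 (4.01 and 7.23 FPKM) and PDE10A (9.06 and 6.47 FPKM), on either side of QKI, were not called. The nearest genes of KHDRBS1 were PTP4A2 (222.0 and 274.1 FPKM) and TMEM39B (12.02 and 15.01 FPKM), those of IGF2BP1 were SNF8 (146.5 and 132.4 FPKM) and ZNF652 (2.96 and 3.78 FPKM), and those of IGF2BP2 were SENP2 (28.8 and 28.6 FPKM) and TRA2B (120.7 and 108.3 FPKM). PTP4A1, nearest to KHDRBS2, was at 72.2 and 41.8 FPKM. None of these 7 was called. Within 3 Mb of KHDRBS1, 2 of 47 compared genes were called higher and 3 lower. Near IGF2BP1, 2 of 59 were called higher and 2 lower. Over all compared genes, 4.67% were called higher and 4.61% lower.

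**Figure D4:**
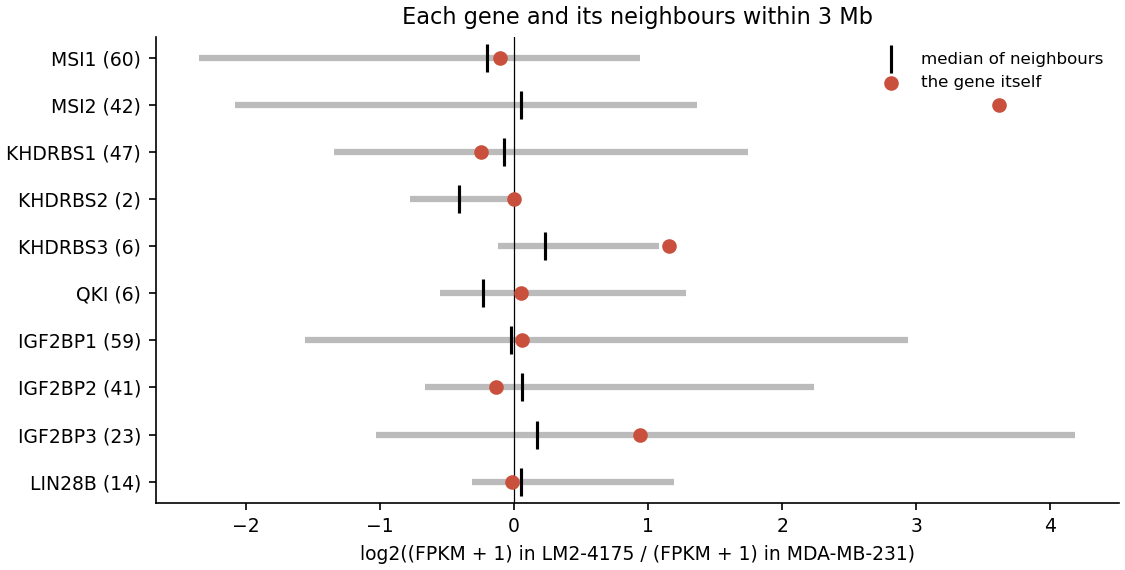
log2 difference in FPKM + 1 between LM2-4175 and MDA-MB-231 for each of the 10 genes (red) and for the compared protein-coding genes that start within 3 Mb (grey line from lowest to highest, black mark at the median, number of neighbours in parentheses). MSI2 at 3.62 and KHDRBS3 at 1.15 lie beyond their highest neighbours at 1.37 and 1.08.

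Lists of genes that act with these proteins were written from general knowledge and are described by counts and medians, beside a median of -0.04 over all compared genes, of which 4.67% were called higher and 4.61% lower. Of 15 genes of the m6A machinery, 14 were compared and none was called, and the median log2 difference was 0.03. The demethylase gene ALKBH5 was at 47.5 and 45.1 FPKM, and the reader genes YTHDF2 and YTHDF1 were at 38.6 and 40.5 and at 35.8 and 37.8 FPKM. YTHDC1, also named after its values were seen, is listed at 0 in both lines with bounds of 0, which in this kind of table can be a failed estimate.

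Of 15 genes of let-7 processing and silencing, 13 were compared and none was called, and the median was -0.21. DROSHA, which encodes the nuclear microRNA processing enzyme, was at 34.8 and 25.2 FPKM. The export factor gene XPO5 was at 34.3 and 23.0 FPKM and PRKRA, a DICER1 cofactor gene, at 24.4 and 17.0 FPKM. These 3 values were lower in LM2-4175, with overlapping bounds. In the whole list, 5 of the 13 compared genes had a higher value and 8 a lower one. The counts over all 13911 compared genes were 6326 and 7585.

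Of 14 let-7 target genes, 13 were compared, 1 was called higher and 1 lower, and the median was 0.09. ARID3B, which encodes a DNA-binding protein, went from 1.60 to 4.13 FPKM. THBS1, which encodes the matrix protein thrombospondin 1, fell from 351.6 to 46.4 FPKM. HMGA1, which encodes an architectural chromatin protein and has processed pseudogenes that make its value uncertain, was at 854.6 and 1135 FPKM and was not called. HMGA2, its paralog, chosen here after its values were seen, was at 20.3 FPKM in MDA-MB-231 (bounds 9.89 and 30.7) and 47.9 in LM2-4175 (bounds 28.0 and 67.7). Its log2 difference was 1.20, but its bounds overlap and it was not called. Without the demand for separate bounds, the fold alone and a limit on the difference in standard errors both called it. Over all 1298 compared genes with a let-7 seed match, the median was -0.04, with 4.24% called higher and 4.08% lower. Over all 11948 compared genes with an annotated 3′ untranslated region, it was -0.05, with 4.64% and 4.82%.

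Of 11 Musashi target genes, 10 were compared, 2 were called higher and none lower, and the median was 0.17. The called share over all compared genes was 9.27%. CDKN1A, which encodes the cell cycle inhibitor p21, went from 46.8 to 77.0 FPKM, and ROBO3, an axon guidance receptor gene, from 14.3 to 42.9 FPKM. TSPAN3, a tetraspanin gene, was at 89.3 and 114.1 FPKM. Musashi proteins are best known for acting on translation, which these RNA levels do not measure. NUMB, the best studied target, was named after its values were seen and was at 45.2 and 50.7 FPKM.

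Of 15 IGF2BP-bound genes, 11 were compared and none was called, and the median was -0.00. ACTB was at 3956 and 2870 FPKM, CD44 at 469.7 and 355.0 FPKM and CTNNB1 at 147.7 and 163.0 FPKM, all with overlapping bounds. ACTB has near-identical pseudogenes, so its value is uncertain. Of 22 targets and partners of STAR proteins, 18 were compared and none was called, and the median was -0.02. HNRNPA1, which also has many pseudogenes, was at 1011 and 1073 FPKM, and the arginine methyltransferase gene PRMT1 was at 206.6 and 180.1 FPKM. CD44, whose splicing KHDRBS1 regulates, is in both lists, and its splice forms were not analysed here.

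Of 31 genes of related RNA-binding proteins, 27 were compared, PCBP3 was called higher and none lower, and the median was -0.07. PCBP3, a poly(C)-binding protein gene, went from 1.16 FPKM (bounds 0.479 and 1.83) to 17.8 FPKM (bounds 10.7 and 24.8), a log2 difference of 3.12. HNRNPA2B1, with 899.3 and 933.8 FPKM, and YBX1, with 538.8 and 475.1 FPKM, were the most abundant of the list and were not called. Of these 27 genes, 25 differed by less than 1.5-fold in FPKM + 1, as did 10837 of all 13911 compared genes.

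**Figure D5:**
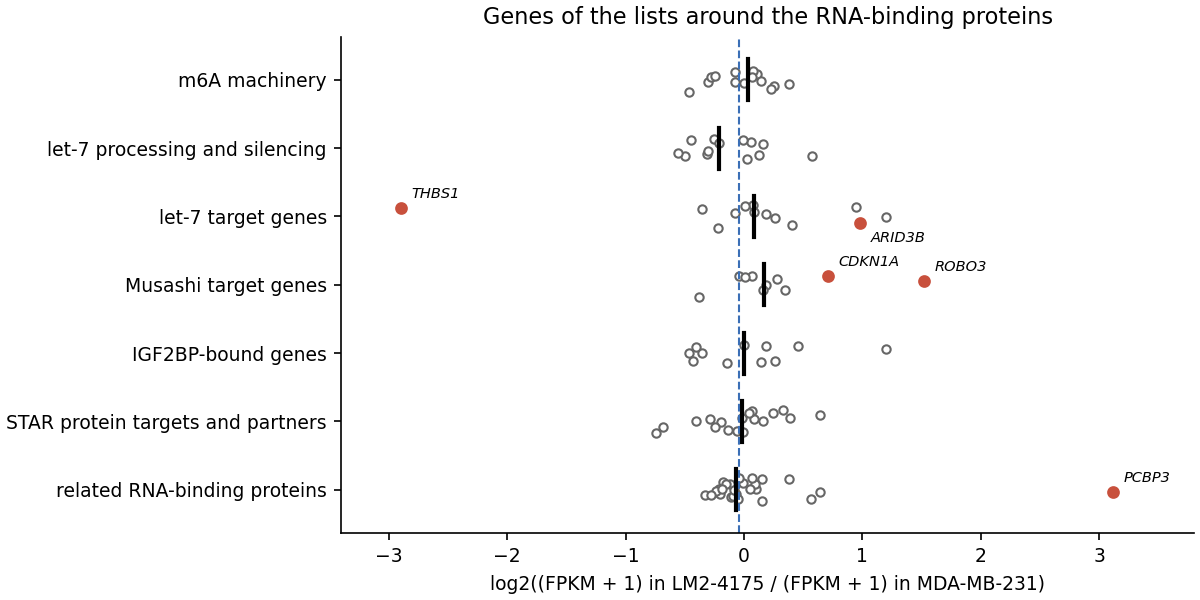
log2 difference in FPKM + 1 between LM2-4175 and MDA-MB-231 for compared genes of 7 lists. Filled red points are called genes, open points are not called, black marks are list medians and the dashed line is the median over all compared genes, -0.04. The 5 called genes are named, with PCBP3 highest at 3.12 and THBS1 lowest at -2.90.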

How the data were processed

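RNA-Seq reads of 4 libraries, 2 per cell line, were mapped by the authors on hg19 (TopHat 2.0, default settings), and the FPKM of GENCODE 19 genes came from Cufflinks and Cuffdiff, as the paper's methods and the submitters' processing notes give it. The deposited table holds FPKM, its bounds and a status, with the libraries of a line combined in 1 value. No strand setting is stated beyond the default mapping. Library-size normalization and what the bounds cover are not given in the sources used here. All columns of samples were used.

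Differences were computed as log2(FPKM + 1) in Python 3.11.15, NumPy 2.4.6 and pandas 2.3.3 and drawn with Matplotlib 3.10.9. The pseudocount of 1 understates the change of low genes, so ratios without it are also given. Genes with status OK and a mean of at least 0.5 FPKM were compared, and 8 genes had another status. Calls needed 1.5-fold and separate bounds. They compare pooled libraries and are no test of replicates. Alternatives were another pseudocount, filter, fold, rule or scaling. The calls were checked on simulated data with errors taken from the bounds, which does not test them against the spread between libraries. The 10 genes and the 7 lists were chosen with earlier results of these data known, and 1 gene of the lists is not reported here. Named were all 10 genes, the called genes of each list, filled up to 3 with the highest by mean FPKM, and the nearest neighbours with called ones where at most 3. Any other gene is said to be chosen with its values known. Positions, exon overlaps and untranslated regions came from GENCODE 44 on GRCh37 (hg19), with 55535 table genes matched and 2280 not. RefSeq gave microRNAs and promoters.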

Additional observations from a re-analysis of the deposited data

How the results depend on the processing

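MSI2 and KHDRBS3 were called higher under all 8 alternatives run, and IGF2BP3 was added by the fold alone. No gene of the 10 was called lower under any of them. The called genes over the whole table numbered 1434 higher and 1640 lower with the fold alone, 450 higher and 403 lower at 2-fold, and 919 higher and 1090 lower with the fold and a limit on the difference in standard errors, taking the distance to a bound as 2 of them. With the fold alone, 4 let-7 target genes, 1 IGF2BP-bound gene, 3 STAR protein targets and partners, and 2 related RNA-binding proteins were called. The standard error rule called 1 IGF2BP-bound gene, which was HMGA2. The 2-fold rule called 1 let-7 target gene and 1 Musashi target gene, and the pseudocount of 0.1 called 2 related RNA-binding proteins. In each case the rule itself admits more or fewer genes. With a pseudocount of 0.1 the log2 difference of MSI2 was 4.16. Scaling both lines to the same sum gave 784 higher and 574 lower against 649 and 641, and neither this nor the median ratio moved a count by more than 1.5 times. No paired analysis was possible because the table gives 1 pooled value per line, and leaving out each replicate was not run for the same reason. For MSI1, KHDRBS2, IGF2BP1 and LIN28B the lower bounds are 0 in both lines, and low expression cannot be told apart from none. The depth is not known from the table, although the paper lists the aligned read pairs of each library.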
